A study of Mus musculus with 2 samples.

Results

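The 10 genes described here build the contacts between epithelial cells: Cdh1 (E-cadherin), Epcam (epithelial cell adhesion molecule), the claudin genes Cldn3, Cldn4, Cldn6 and Cldn7, Ocln (occludin), Tjp1 (the scaffold ZO-1), Dsp (desmoplakin) and Jup (plakoglobin). They were taken by gene symbol from a deposited table of 51826 genes, and all 10 were found. The table holds 2 RNA-seq libraries of v6.5 mouse embryonic stem (ES) cells, 1 of wild-type genotype and 1 of genotype T29I. The series title names PRSS1, a trypsinogen gene, as the mutated gene, and both libraries carry the strain label NBA1-19349. No treatment, time or age is labelled, and the labels do not say whether the T29I cells came from 1 clone. Each genotype has 1 library, so there is no replicate and no test: "higher" and "lower" compare 1 library with the other. Clone, culture and library preparation cannot be told apart from genotype.

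In an epithelium, adherens junctions are held by E-cadherin, whose cytoplasmic tail binds catenins that reach the actin cytoskeleton. Tight junctions seal the space between cells through strands of claudins with occludin, which are tied to actin by scaffold proteins such as ZO-1. Desmosomes connect cells to keratin filaments through desmosomal cadherins, plakoglobin, plakophilins and desmoplakin. Mouse ES cells descend from the inner cell mass of the blastocyst and hold together in domed colonies through E-cadherin, and EpCAM marks them as it does simple epithelia.

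All 8 ES cell markers were expressed in both libraries. Pou5f1 measured 1722 TPM in wild-type and 1454 TPM in T29I cells, Nanog 765 and 140 TPM, Zfp42 544 and 23.3 TPM, and Utf1 972 and 2459 TPM. Sox2 was at 563 and 355 TPM, Esrrb at 313 and 77.5 TPM, Dppa5a at 5089 and 2632 TPM and Sall4 at 197 and 66.4 TPM. Of the 8, only Utf1 had a higher TPM in T29I cells. TPM is the deposited unit, a level per unit of gene length that sums to 1000000 in each library. The libraries hold an estimated 16909997 (wild-type) and 15281657 (T29I) reads assigned to genes. Intervals of levels and folds below are 95% exact intervals on the estimated reads of a gene, Poisson for a level and Clopper-Pearson for a fold, and cover counting error only. In bulk RNA, fewer cells with a transcript and less transcript per cell cannot be told apart. Ratios are log2((T29I TPM + 1) / (wild-type TPM + 1)). The median ratio of the 9375 genes averaging 5 TPM or more was -0.90, and a ratio "relative to the shift" has this median subtracted. An adjusted ratio is what is left after a quadratic fit of the ratio on transcript length and GC content over 9100 protein-coding genes. As deposited, 4 of the 8 ES cell markers were at least 2-fold lower in ratio and 1 higher. Of genes averaging 1 TPM or more, 45.7% were lower and 9.97% higher by this measure. After adjustment 3 of the 8 were lower and 0 higher, beside 15.5% and 17.6% of all genes.

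The 4 claudin members were the genes of the set with a more than 2-fold higher level in the T29I library. The bases just upstream of their annotated starts are therefore shown, with those of Epcam, which lay on the other side. The sequences are RefSeq promoter entries on GRCm38.p6, read 5′ to 3′ on the strand of the gene. They were cut at the annotated gene start so that no transcribed base is included, which leaves 134 bases for Cldn6 and 250 for the others. Of the 10 members 9 matched an entry, and Cdh1 did not. Capitals mark 2 motifs on either strand: CACCTG, the E-box that the repressors Snail and Zeb bind, and GGGCGG, the GC box of Sp and Klf factors.

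Cldn3 (chr5:134985964-134986213, + strand): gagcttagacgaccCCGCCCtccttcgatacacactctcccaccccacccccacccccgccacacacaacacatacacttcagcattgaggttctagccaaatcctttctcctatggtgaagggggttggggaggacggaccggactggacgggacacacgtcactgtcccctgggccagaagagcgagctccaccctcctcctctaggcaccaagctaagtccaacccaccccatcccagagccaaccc
Cldn4 (chr5:134946935-134947184, - strand): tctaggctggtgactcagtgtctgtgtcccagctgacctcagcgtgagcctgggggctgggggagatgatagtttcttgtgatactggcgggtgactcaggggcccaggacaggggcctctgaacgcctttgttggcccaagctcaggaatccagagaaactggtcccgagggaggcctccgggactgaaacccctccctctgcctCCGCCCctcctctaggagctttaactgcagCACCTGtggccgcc
Cldn6 (chr17:23679115-23679248, + strand): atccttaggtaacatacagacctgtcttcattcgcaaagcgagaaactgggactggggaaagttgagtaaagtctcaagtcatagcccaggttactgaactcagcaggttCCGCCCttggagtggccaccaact
Cldn7 (chr11:69964529-69964778, + strand): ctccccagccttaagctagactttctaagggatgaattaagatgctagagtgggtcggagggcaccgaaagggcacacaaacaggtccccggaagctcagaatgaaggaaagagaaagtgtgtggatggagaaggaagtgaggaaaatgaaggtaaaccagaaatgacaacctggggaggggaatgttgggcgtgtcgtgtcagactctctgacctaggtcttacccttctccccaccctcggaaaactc
Epcam (chr17:87635729-87635978, + strand): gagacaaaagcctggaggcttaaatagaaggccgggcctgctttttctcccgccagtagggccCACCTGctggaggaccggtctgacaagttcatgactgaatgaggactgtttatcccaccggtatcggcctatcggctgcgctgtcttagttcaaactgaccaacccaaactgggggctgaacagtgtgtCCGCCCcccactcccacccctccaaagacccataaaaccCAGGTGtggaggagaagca

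The stretch of Epcam holds 2 E-boxes and 1 GC box, and that of Cldn4 holds 1 of each. Cldn3 and Cldn6 show 1 GC box and no E-box in these stretches, and Cldn7 shows neither motif. The full 250 bases of the Cldn6 entry, which run past the annotated gene start, hold 1 E-box and 2 GC boxes. No marked motifs overlap. Of the members not printed, Ocln, Tjp1 and Dsp, all lower in T29I cells, hold no E-box in their 250-base windows. They hold 1, 2 and 4 GC boxes. The window of Jup, higher in T29I cells, holds no E-box and 2 GC boxes. Among the lower members with an entry, only Epcam therefore holds an E-box. Over the 250 bases upstream of 32851 RefSeq start sites, 17.2% hold CACCTG and 32.7% hold GGGCGG on either strand. AACCNGTT, bound by grainyhead factors, and TATAAA were searched as well and were in the upstream window of none of the 9 members; 1.79% and 12.4% of all windows hold them. These are matches of letters and do not show that a factor is bound.

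Claudins are 4-pass membrane proteins that form the strands of the tight junction and set which solutes pass between cells. The 33 claudin genes in the table summed to 185 TPM in wild-type and 532 TPM in T29I cells, 2.87-fold higher, and the 4 members made up 84.8% and 96.1% of these sums.

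Cldn6, a claudin of pluripotent cells and early epithelia, was measured at 65.1 TPM (60.0 to 70.7) in wild-type and 195 TPM (187 to 203) in T29I cells. This is 3.0-fold higher in the T29I library (2.73 to 3.29). Cldn4, a claudin of many simple epithelia, was at 71.4 TPM (66.1 to 77.0) against 176 TPM (169 to 184), a 2.46-fold difference (2.26 to 2.69). The order of these 2 claudins differed between the libraries: Cldn4 was above Cldn6 in wild-type cells with overlapping intervals, and Cldn6 was above Cldn4 in T29I cells with intervals apart.

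Cldn7, which is known to associate with EpCAM in the basolateral membrane, stood at 16.2 TPM (13.8 to 18.9) in wild-type and 88.4 TPM (83.4 to 93.7) in T29I cells, 5.45-fold higher (4.63 to 6.46). Cldn3, a barrier-forming claudin, rested on an estimated 30 reads in wild-type and 426 in T29I cells. Its level was 4.59 TPM (3.10 to 6.55) against 51.2 TPM (46.5 to 56.3), 11.2-fold higher (7.70 to 16.7). The less abundant a claudin member was in wild-type cells, the larger was its fold. The wild-type level is also the divisor of the fold, so the 2 are not independent. The wild-type intervals of Cldn4 and Cldn6 overlapped. The share of all claudin TPM taken by Cldn3 went from 2.48% to 9.63% and that of Cldn7 from 8.75% to 16.6%, while Cldn4 held 38.5% and 33.1% and Cldn6 35.1% and 36.7%.

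**Figure D1:**
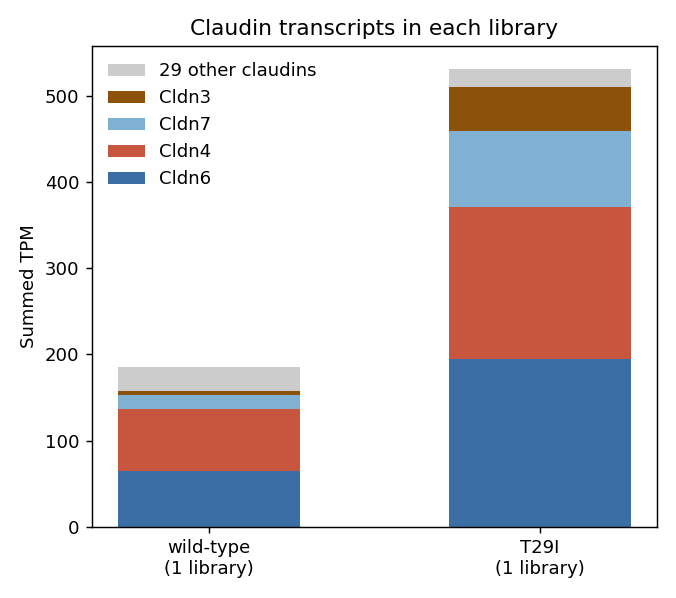
Summed TPM of claudin genes (y axis) in the wild-type and the T29I library, 1 bar per library, stacked by gene, with the 29 other claudin genes in grey. The bar of the T29I library reaches 532 TPM against 185 TPM in wild-type, and the Cldn3 segment goes from 4.59 to 51.2 TPM.

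The claudin members differ in place and build. Cldn3 (ENSMUSG00000070473; chr5:134986214-134987472, + strand) and Cldn4 (ENSMUSG00000047501; chr5:134945119-134946934, - strand) are single-exon genes in GENCODE M21 on GRCm38, and 39280 bases separate them. Cldn6 (ENSMUSG00000023906; chr17:23679249-23682446, + strand, 3 exons) lies 138 bases from Cldn9, and Cldn7 (ENSMUSG00000018569; chr11:69964779-69967885, + strand, 4 exons) stands 337 bases before Elp5. Neighbouring genes varied. Relative to the shift Elp5 was at 1.79 (72.1 and 135 TPM in wild-type and T29I cells), Tnfrsf12a beside Cldn6 at 2.03 (24.8 and 55.6 TPM) and Wbscr27 beside Cldn4 at 1.26 (8.06 and 10.6 TPM). On the far side of Cldn3, Abhd11 was at 1.32 (40.3 and 54.3 TPM) and Stx1a at 0.05 (7.73 and 3.86 TPM). Near Cldn7, Ybx2 was at 3.02 (6.34 and 30.9 TPM) and Ctdnep1 at 1.98 (52.1 and 112 TPM). Near Cldn6, Hcfc1r1 was at 2.20 (63.9 and 159 TPM). Adjusted for length and GC content, Elp5, Tnfrsf12a, Wbscr27, Abhd11 and Stx1a were at 0.89, 0.21, 0.90, -0.22 and -1.25. Ybx2, Ctdnep1 and Hcfc1r1 were then at 0.64, 0.61 and 0.21.

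Of 26 other claudin and claudin-domain genes listed, 25 were in the table and 5 averaged 1 TPM or more; 9 were at 0 in both libraries. Cldn9 was at 1.21 and 4.75 TPM and Cldn5, the claudin of endothelial barriers, at 1.91 and 7.39 TPM. In wild-type cells 2 of them were above Cldn7 and Cldn3: Cldn12 was at 20.7 and 6.37 TPM and the claudin-domain gene Cldnd1 at 24.3 and 7.56 TPM. Cldn20 had an estimated 9 reads in wild-type cells (2.63 TPM) and was listed at 0 in T29I cells.

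Cdh1 (ENSMUSG00000000303; chr8:106603351-106670246, + strand, 16 exons) encodes E-cadherin, the calcium-dependent adhesion receptor of adherens junctions. It was measured at 238 TPM (232 to 244) in wild-type and 54.6 TPM (52.0 to 57.3) in T29I cells. The level was 4.36-fold lower in the T29I library (4.12 to 4.61). Epcam (ENSMUSG00000045394; chr17:87635979-87651129, + strand, 10 exons), a membrane glycoprotein that supports adhesion and proliferation, was at 275 TPM (265 to 285) and 127 TPM (121 to 133). That is 2.17-fold lower in T29I cells (2.04 to 2.30), close to the 1.86-fold lower level of the median gene. Both genes led the set in wild-type cells, and in T29I cells Epcam stood below Cldn6 and Cldn4, and Cdh1 below Jup and Cldn7 as well, its interval overlapping that of Cldn3.

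Jup (ENSMUSG00000001552; chr11:100368958-100397763, - strand, 14 exons) encodes plakoglobin, a relative of beta-catenin that sits in both adherens junctions and desmosomes. It was the only member outside the claudins with a higher TPM in T29I cells, at 110 TPM (107 to 113) against 77.6 TPM (74.7 to 80.7), a 1.42-fold difference (1.35 to 1.49). Dsp (ENSMUSG00000054889; chr13:38151294-38198577, + strand, 24 exons) encodes desmoplakin, which anchors keratin filaments to desmosomes. It was at 11.7 TPM (10.8 to 12.7) in wild-type and 1.21 TPM (0.952 to 1.51) in T29I cells, 9.69-fold lower in T29I cells (7.65 to 12.5). The 2 desmosomal plaque genes thus lay on opposite sides, and Jup was 6.62 times the TPM of Dsp in wild-type and 90.7 times in T29I cells.

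Tjp1 (ENSMUSG00000030516; chr7:65296165-65527781, - strand, 28 exons) encodes ZO-1, the scaffold that ties claudins and occludin to actin. It was at 79.6 TPM (76.8 to 82.4) in wild-type and 11.7 TPM (10.8 to 12.7) in T29I cells, 6.77-fold lower in T29I cells (6.21 to 7.40). Ocln (ENSMUSG00000021638; chr13:100496507-100552718, - strand, 9 exons), the other strand protein, was the least abundant member in both libraries. It stood at 2.37 TPM (1.77 to 3.11) in wild-type and 1.15 TPM (0.785 to 1.62) in T29I cells, from an estimated 52 and 32 reads, 2.07-fold lower in T29I cells (1.31 to 3.32). The counting intervals of all 10 members were apart between the libraries, 5 higher and 5 lower in T29I cells. Of 12920 genes averaging 1 TPM or more, 20.5% were apart and higher and 62.3% apart and lower, so that intervals apart are common between these libraries.

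**Figure D2:**
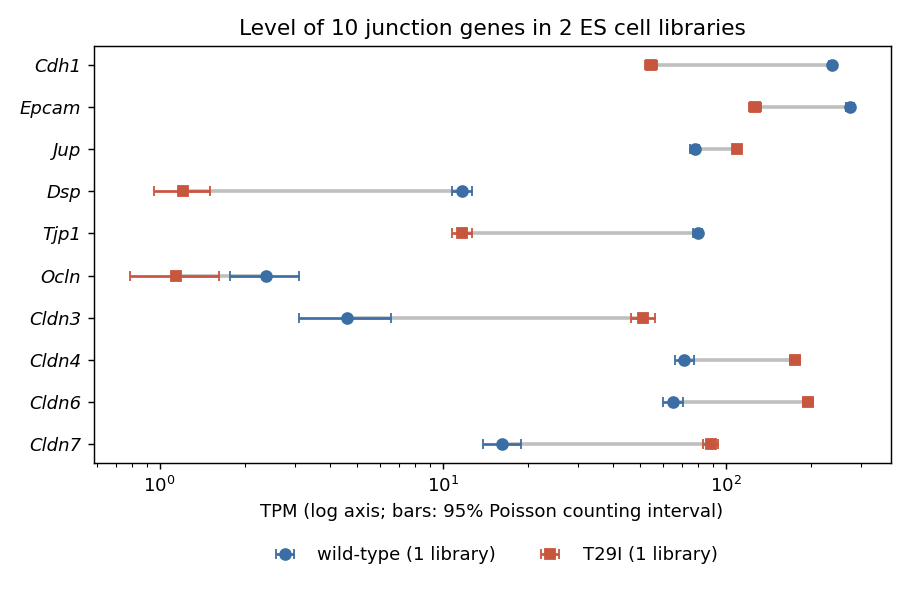
TPM (log axis) of the 10 genes in the wild-type library (blue circles) and the T29I library (red squares), 1 library each, with 95% Poisson counting intervals as bars. Cldn3, Cldn4, Cldn6, Cldn7 and Jup lie to the right in T29I cells, and Cdh1, Epcam, Dsp, Tjp1 and Ocln to the left.

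The order of the members by level differed between the libraries. In wild-type cells Epcam and Cdh1 stood above all others, followed by Tjp1, Jup, Cldn4 and Cldn6, each of which overlapped its neighbour in counting interval. Cldn7 and Dsp followed with intervals apart, and Cldn3 overlapped Ocln at the lower end. In T29I cells the order was Cldn6, Cldn4, Epcam, Jup and Cldn7, all with intervals apart, then Cdh1 overlapping Cldn3, then Tjp1, and last Dsp overlapping Ocln. The 10 genes summed to 841 TPM in wild-type and 816 TPM in T29I cells.

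Quotients of 2 levels within a library do not depend on the scaling of the library. All quotients given here, those of Jup included, still carry the trend of ratios with transcript length and GC content described below. Genes of like length and GC content to Cldn3, Cldn4 and Cldn7 had a median ratio of 0.96, and those like Cldn6 0.43. The median was -1.30 for genes like Cdh1 and -2.30 for genes like Tjp1. The 4 claudins together were 0.662 times the TPM of Cdh1 in wild-type and 9.36 times in T29I cells, a 14.1-fold difference. Against Tjp1 the claudin sum was 1.98 and 43.5 times, a 22.0-fold difference. Cldn7 was 0.0590 times the TPM of Epcam in wild-type and 0.697 times in T29I cells. Epcam went from 1.16 to 2.32 times the TPM of Cdh1.

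Called here means at least 2-fold on the log2(TPM + 1) scale, in a gene averaging 1 TPM or more, a filter that all 10 members passed. As deposited, 4 members were called lower (Cdh1, Epcam, Tjp1 and Dsp), beside 45.7% of the 12943 genes that passed this filter. Ocln, 2.07-fold lower in TPM, was at -0.65 on this scale and was not called. Another 4, the claudins, were called higher, beside 9.97% of these genes. Relative to the shift 3 members were called lower (Cdh1, Tjp1 and Dsp; 22.2% of all genes) and 5 higher (the claudins and Jup; 26.0%). Relative to the shift Epcam was at -0.21 and Ocln at 0.24. The median of the members was 0.82 relative to the shift, beside 0.055 over all genes that passed the filter.

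The ratios of the members followed transcript length closely. By their longest annotated transcript the 4 claudins span 1259 to 1816 bases, Epcam 2040, Jup 3205, Ocln 4052, Cdh1 4430, Tjp1 7049 and Dsp 9592 bases. Spearman's rho of ratio with length was -0.95 over the 10 members and -0.53 over the 9100 protein-coding genes averaging 5 TPM or more. With GC content it was 0.78 and 0.56. All genes here share the same 2 libraries, so these coefficients are descriptions and have no p-value. Which annotated transcript was expressed was not tested.

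**Figure D3:**
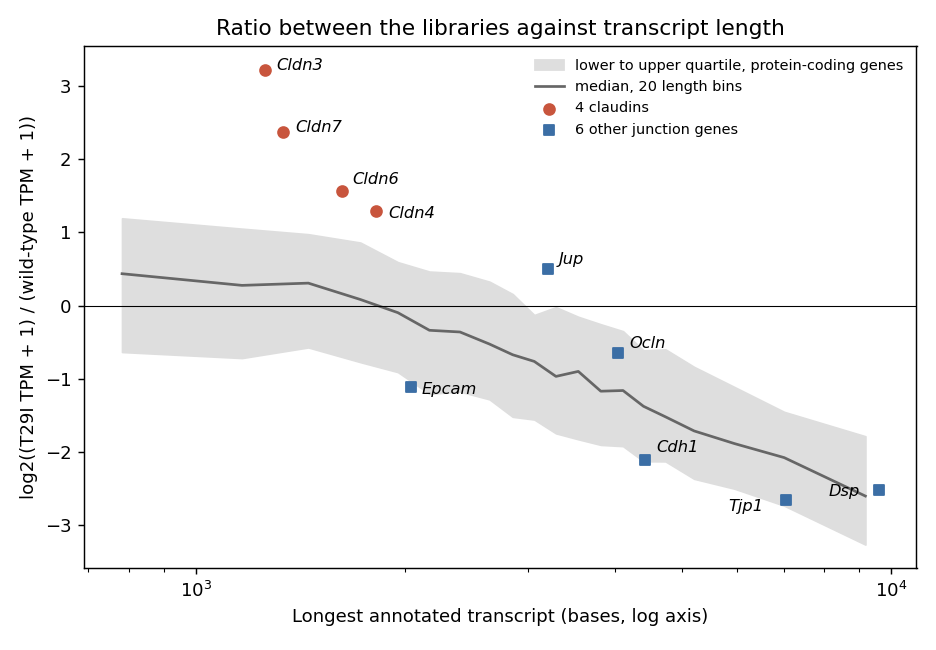
Ratio on the log2(TPM + 1) scale, T29I over wild-type (y axis), against the longest annotated transcript in bases (log x axis), for the claudins (red circles) and the other members (blue squares). The grey line and band give the median and the lower to upper quartile of protein-coding genes in 20 length bins; the claudins lie above the band, as does Jup, while Tjp1 lies within it and Dsp just past its right end, level with the median line.

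Adjustment for length and GC content left no member called lower (15.5% of the 12920 genes with a GC value) and 4 called higher (17.6%). The claudins Cldn7, Cldn3 and Cldn6 were at 1.74, 1.63 and 1.40, and Cldn4 at 0.88, under the 2-fold line. Cdh1 and Epcam were at -0.90 and -0.91, Tjp1 at -0.53, Dsp at -0.19 and Jup at 0.41. The 4th call was Ocln at 1.06, although its TPM was lower in T29I cells. The ratio of Ocln was -0.65 with the + 1 and -0.99 with a pseudocount of 0.1 TPM. Genes of like length and GC content had a median of -1.74. Its adjusted value is set against such genes and shows no higher level in T29I cells. The adjustment was not run with another pseudocount.

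Each gene was also set against the median of protein-coding genes in the same of 5 bins of length and 5 of GC content. Every member kept its sign. Cldn3 was at 2.26 in place of 1.63 and Cldn4 at 0.33 in place of 0.88, and Epcam passed the 2-fold line. The 584 genes in the bin of Cldn3, Cldn4 and Cldn7, in the shortest and most GC-rich bins, had a median ratio of 0.96. Against their bins Cldn3 was at 2.26, Cldn7 at 1.41, Cldn6 at 1.14, Cldn4 at 0.33, Ocln at 1.09 and Jup at 0.40, while Epcam was at -1.15, Cdh1 at -0.81, Dsp at -0.40 and Tjp1 at -0.36. By this measure 1 member, Epcam, was called lower (15.6% of all genes) and 4 were called higher, Cldn3, Cldn6, Cldn7 and Ocln (17.9%). On the log2(TPM + 1) scale Dsp and Tjp1, at -2.53 and -2.66 as deposited, were near the medians of their bins, -2.13 and -2.30. The + 1 compresses the ratio of Dsp, which was -3.17 with a pseudocount of 0.1 TPM. How far the trend with length and GC content comes from the RNA or the library was not tested.

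**Figure D4:**
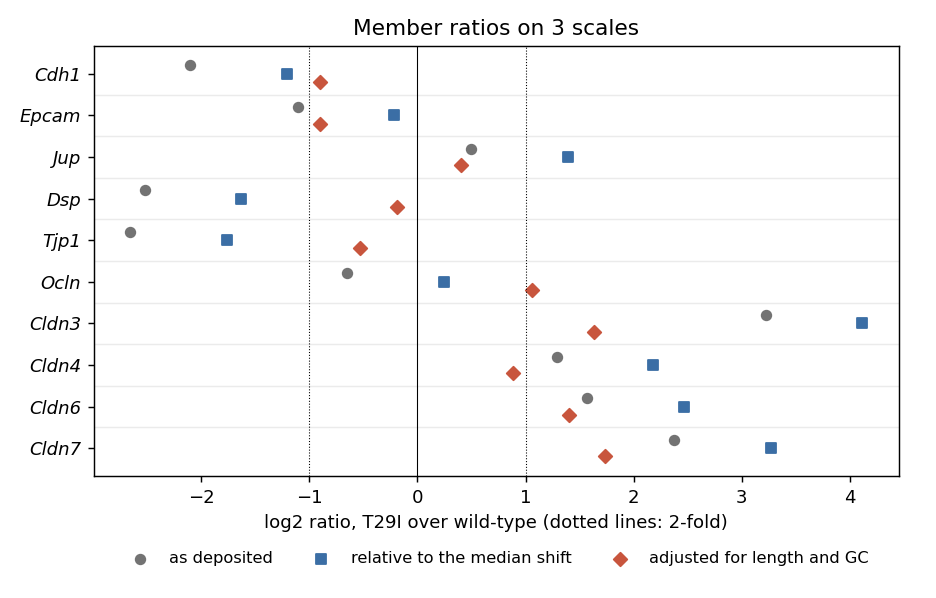
Log2 ratios of the 10 members, T29I over wild-type (x axis, dotted lines at 2-fold), as deposited (grey circles), relative to the median shift (blue squares) and adjusted for length and GC content (red diamonds). Cldn3, Cldn6 and Cldn7 are past the 2-fold line on all 3 scales, while Dsp goes from -2.53 to -0.19.

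Of 13 measured partners of E-cadherin in adherens junctions, 8 were called lower as deposited and 0 higher, beside 45.7% and 9.97% of all genes. Relative to the shift 5 were called lower and 2 higher (22.2% and 26.0%), with a median of -0.65. Ctnnb1, which encodes beta-catenin, was 5.59-fold lower in T29I cells, at 450 and 80.5 TPM. Ctnnd1, the p120-catenin that stabilises cadherin at the membrane, was at 106 and 18.5 TPM. Afdn, which links nectins to actin, was at 59.2 and 9.17 TPM. The 3 highest were Nectin2 at 70.1 and 120 TPM, Ctnnbip1, an inhibitor of beta-catenin, at 21.8 and 27.5 TPM, and Arvcf at 25.0 and 20.3 TPM. Jup was 0.173 times the TPM of its relative Ctnnb1 in wild-type and 1.36 times in T29I cells. After adjustment the median was -0.43. Ctnnb1, at -1.47, was the 1 gene called lower, while Nectin3 at 1.75 was the 1 called higher on 8.84 and 4.45 TPM. Of all genes 15.5% were called lower and 17.6% higher by this measure.

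Of 10 measured membrane partners of the tight junction, 2 were called higher and 3 lower relative to the shift, near the shares of all genes (26.0% and 22.2%), with a median of 0.41. Crb3, a polarity protein of the apical membrane, was at 18.5 and 63.7 TPM, and Lsr, a protein of tricellular contacts, at 61.1 and 124 TPM. Marveld3, a relative of occludin, was at 1.64 and 1.57 TPM. Of the junctional adhesion molecules F11r was at 77.6 and 15.1 TPM, Jam2 was at 79.9 and 5.44 TPM, and the adhesion receptor Cxadr was at 14.6 and 2.90 TPM. After adjustment 2 were called lower, F11r and Jam2 at -1.63 and -2.09, and 0 higher, beside 15.5% and 17.6% of all genes. Cxadr was at 0.09, and Crb3 and Lsr were at 0.92 and 0.53.

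Among 19 measured plaque and polarity partners of the tight junction, 5 were called lower and 3 higher relative to the shift (22.2% and 26.0% of all genes), with a median of -0.12. After adjustment 2 were called lower and 4 higher (15.5% and 17.6%), with a median of 0.34. The 4 were Patj, Mpdz, Magi3 and Sympk, of which Patj, Mpdz and Magi3 had a lower TPM in T29I cells. Tjp3, which encodes the scaffold ZO-3, was at 12.2 and 21.6 TPM. The lowest were Prkci, an atypical protein kinase C of the polarity complex, at 96.6 and 9.16 TPM, Cgn, which encodes cingulin, at 38.4 and 4.88 TPM, and Mpp5, which encodes the scaffold Pals1, at 19.2 and 2.36 TPM. With Tjp3, the highest were Pard6a, a partner of atypical protein kinase C, at 15.5 and 32.1 TPM and Sympk at 50.8 and 64.8 TPM. Prkci and Cgn had adjusted ratios of -1.54 and -1.75, whereas Mpp5 was at -0.46 and Tjp3 at 0.34.

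Of 14 listed desmosome partners 7 did not reach a mean of 1 TPM, and of the 7 measured 4 were called lower and 1 higher relative to the shift (22.2% and 26.0% of all genes), with a median of -1.11, or -0.65 once adjusted. Dsg2, the desmosomal cadherin of simple epithelia, was at 24.5 and 1.65 TPM, while Dsc2, its partner, was under 1 TPM in both libraries. Perp, a tetraspan desmosome protein, was at 83.3 and 9.62 TPM and Pkp4, a plakophilin of cell contacts, at 93.3 and 13.8 TPM. After adjustment 3 of the 7 were called lower and 0 higher, beside 15.5% and 17.6% of all genes. Adjusted ratios of Dsg2, Perp and Pkp4 were -1.47, -2.31 and -1.54, so they were called lower on both measures. Dsp, whose 1.21 TPM in T29I cells the + 1 compresses, was not called after adjustment. The highest were Pkp3, at 10.1 and 14.7 TPM, Evpl, at 4.47 and 2.77 TPM, and Pkp2, at 32.1 and 11.1 TPM.

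EpCAM is processed by membrane serine proteases, whose genes and inhibitors were read beside it. Of 7 measured genes 3 were called higher and 0 lower relative to the shift (26.0% and 22.2% of all genes), with a median of 0.55. After adjustment 2 were called higher and 1 lower (17.6% and 15.5%). Prss8, which encodes prostasin, was at 14.7 and 51.4 TPM and Spint2, a Kunitz-type inhibitor, at 209 and 280 TPM. The matriptase gene St14 was at 46.3 and 36.3 TPM. Spint1, the second Kunitz-type inhibitor, was at 57.6 and 28.9 TPM and Cd24a at 36.0 and 14.3 TPM. Cd9, a tetraspanin, was at 215 and 130 TPM. The higher calls after adjustment were Prss8 at 1.42 and Spint2 at 1.38, and the lower call was Spint1 at -1.14. The longest annotated transcript, which the adjustment uses, has 1 exon for Spint2 and for St14. Whether these transcripts were expressed was not tested, so their adjusted ratios are less certain.

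Of 9 measured transcription and splicing factors of epithelial cells, 6 were called lower as deposited and 0 higher, beside 45.7% and 9.97% of all genes. Relative to the shift 2 were called lower and 1 higher (22.2% and 26.0%), with a median of -0.28. Klf5, a factor of ES cells and gut epithelium, was at 229 and 11.4 TPM and Grhl2, a grainyhead factor known to activate Cdh1 and Cldn4, at 30.9 and 2.72 TPM. Their adjusted ratios were -3.08 and -1.71. After adjustment these 2 were called lower and 0 higher (15.5% and 17.6% of all genes), with a list median of -0.41. Esrp2, an epithelial splicing regulator, was at 15.3 and 5.72 TPM. The highest were Elf3, an epithelial Ets factor, at 70.5 and 138 TPM, Ovol2 at 5.65 and 5.80 TPM and Ovol1 at 2.39 and 1.51 TPM. Elf3 and Esrp2 were at 0.72 and -0.90 after adjustment.

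Of 9 listed repressors of Cdh1, 3 averaged under 1 TPM. Snai1 was at 5.94 and 8.50 TPM, Snai2 at 0.285 and 0.224 TPM, and Snai3 at 9.47 and 9.21 TPM. Zeb1 was at 3.24 and 0.524 TPM and Zeb2 at 0.106 and 0.0911 TPM. Twist1 was at 1.06 and 2.42 TPM and Twist2 at 0.0607 and 0.525 TPM. Of the E proteins Tcf3 was at 107 and 110 TPM and Tcf4 at 5.11 and 0.929 TPM. Twist1, on an estimated 9 and 26 reads, was 2.27-fold higher in TPM (1.03 to 5.51), short of the 2-fold line on the log2(TPM + 1) scale. Snai1 and Twist1 were at 1.35 and 1.62 relative to the shift and at -0.47 and -0.12 after adjustment. Of the mesenchymal genes Cdh2, which encodes N-cadherin, was at 1.84 and 0.357 TPM, Fn1 at 233 and 26.2 TPM, Vim at 172 and 139 TPM and Acta2 at 1.51 and 12.1 TPM.

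**Figure D5:**
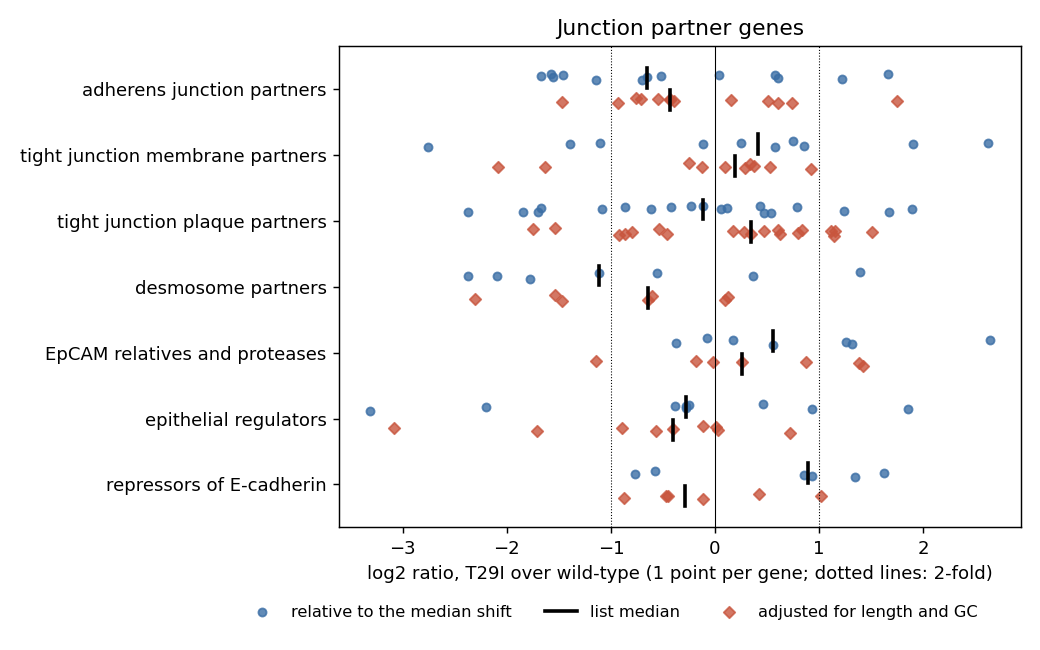
Log2 ratio, T29I over wild-type (x axis, dotted lines at 2-fold), of genes averaging 1 TPM or more in 7 partner lists, 1 point per gene, relative to the shift (blue circles) and adjusted for length and GC content (red diamonds), with list medians as black bars. The desmosome partners have the lowest median, at -1.11 and -0.65.

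Over the 65 measured partner genes of the 6 junction and regulator lists, rho of ratio with transcript length was -0.51, and that of the adjusted ratio was 0.029. Over the 10 members rho of the adjusted ratio with length was still -0.71.

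Markers of other cell types differed between the libraries as well. The 8 markers of trophectoderm, an epithelium that carries claudins, summed to 125 TPM in wild-type and 814 TPM in T29I cells. Krt8 was at 28.6 and 389 TPM and Krt18 at 15.4 and 353 TPM, which make up most of the sum in T29I cells. Krt7 was at 0.410 and 15.2 TPM, and the factor Gata3 at 0.339 and 1.56 TPM, on an estimated 7 and 41 reads. Tfap2c was at 73.4 and 53.1 TPM and Eomes at 6.21 and 2.19 TPM, while the defining factor Cdx2 was at 0.256 and 0.402 TPM and Elf5 at 0.0983 and 0.103 TPM. The 10 fibroblast markers, which feeder cells would bring, summed to 7.32 and 20.2 TPM, of which Thy1 made up 4.57 and 17.6 TPM, and Lum was listed at 0 in both libraries. Of the 10, 8 averaged under 1 TPM. Apart from Thy1 they went both ways. Col1a1 (0.939 and 1.38 TPM), Col1a2 and Twist2 had a higher TPM in T29I cells. Pdgfrb (0.985 and 0.166 TPM), Col3a1, Col6a3, Postn and Dcn had a lower TPM. The 8 primitive endoderm markers summed to 42.5 and 3.17 TPM, with 5 of 8 under 1 TPM in both libraries. Of these sums Lama1 made up 33.8 and 0.588 TPM and Sox7 6.02 and 0.184 TPM. Gata4 at 0.493 and 0.659, Dab2 at 0.735 and 1.13 and Sox17 at 0.0444 and 0.174 TPM had a higher TPM in T29I cells. The counting intervals of Gata4, Dab2 and Sox17 each overlapped between the libraries. Gata6 at 0.965 and 0.332, Foxa2 at 0.325 and 0.0639 and Pdgfra at 0.0769 and 0.0302 TPM had a lower TPM. Among these lower genes only Gata6, on an estimated 33 and 14 reads, had intervals apart. The part of other cell types in the claudin levels was not tested.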

How the data were processed

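RNA was measured in 2 ES cell libraries, made per the labels' protocols from Isogen-extracted total RNA with a stranded kit that removes ribosomal RNA. The authors deposited 1 table of TPM per gene and library; aligner, counting tool, build and annotation were not given in the sources used here. Columns were tied to samples by their descriptions. Of 51826 identifiers 51633 matched GENCODE M21 (GRCm38), whose coordinates, lengths and GC content are used and may differ from the authors' annotation. TPM times merged exon length, divided by the value of 1 read, was whole within 0.05 for 80.9% (wild-type) and 79.9% (T29I) of values. It was whole in both libraries for 7 of 10 members, and for Epcam, Cldn6 and Dsp they are estimates of lower certainty. No count model or test was run, since TPM from 1 library per genotype leaves no spread to estimate.

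The log2 ratio used a pseudocount of 1 TPM, which understates differences of low genes. The fit of length and GC content removes any true difference that follows them, and explained 44.9% of the variance of ratios. Its script was run on simulated reads with counting noise only and a trend linear in log length and GC content, which the fit contains. That run cannot show how well the fit suits these 2 libraries. The 20 most abundant genes held 16.9% and 27.0% of the TPM. Members and lists were chosen with earlier results of these data known. Text names all members and repressors, claudins averaging 1 TPM or more, and the 3 highest and 3 lowest ratios relative to the shift per partner list; other names were chosen after their values were seen. A gene that this rule names is not reported here. Analyses used Python 3.11.15, numpy 2.4.6, pandas 2.3.3 and scipy 1.17.1.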

Additional observations from a re-analysis of the deposited data

How the results depend on the processing

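Alternatives tried were pseudocounts of 0.1 and 5 TPM, no filter or a mean minimum of 10 TPM, TPM rescaled without the 20 most abundant genes or over protein-coding nuclear genes, the length and GC adjustment, a trimmed-mean centre (-0.83 in place of -0.90), and folds of 1.5 and 3. Centring on 5 bins each of length and GC content was chosen after seeing the data. Of the alternative counts of members past the fold, 36 stayed within 1.5 times the reported count and 4 did not. The length and GC adjustment left 0 members lower, in place of 4 as deposited and 3 relative to the shift, and centring on these bins left 1, Epcam. With a fold of 3 as deposited 2 claudins, in place of 4, were higher. The tight junction plaque median, -0.12, lay close to 0 and was positive at 0.24 with a pseudocount of 5 TPM, 0.12 with a minimum of 10 TPM, 0.34 after adjustment and 0.37 against the bins. Without a filter the desmosome median reversed to 0.75, because 7 genes near 0 in both libraries enter with ratios near 0, which lie above the shift. Ocln, -0.65 as deposited, was 1.06 after adjustment and 1.09 against the bins; relative to the shift it was 0.24, and -0.048 with a pseudocount of 0.1 TPM. The ratio relative to the shift ranged from 1.63 to 4.39 for Cldn3, 1.41 to 3.38 for Cldn7, 1.14 to 2.52 for Cldn6, 0.33 to 2.24 for Cldn4 and -1.31 to -0.81 for Cdh1. Depth limits Ocln, at 52 and 32 estimated reads, and Cldn3 in wild-type cells, at 30. Leaving out a replicate was not possible with 1 library per genotype.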
